A study of Mus musculus with 22 samples.

Results

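Whole spleens of non-diseased cyclin D1 transgenic mice were compared between animals that received added irradiation and animals that received sheep red blood cells (SRBC) alone. The study measured spleen RNA on a bead array in 22 mice, 1 array per mouse. The comparison takes 11 of them, chosen by their titles: 6 irradiated mice against 5 mice with SRBC alone, all without disease. All 11 carried a cyclin D1 transgene and all were stimulated with SRBC, a foreign antigen that drives antibody responses. The irradiated side held 3 mice whose B cells also lacked Bim (titled Tg_KO_nD_I) and 3 with the transgene alone (Tg_nD_I), and the SRBC side held 2 (Tg_KO_nD_A) and 3 (Tg_nD_A). Over the whole series the titles name 8 mice with the transgene alone where the design text counts 7, so the label or inclusion of 1 of them is uncertain, and which one is not known. Bim, encoded by Bcl2l11, is a BCL2 family protein that promotes cell death. The dose and time of the irradiation, the age and sex of the mice and the driver of the B cell deletion do not appear in the labels. Added irradiation was therefore read as a label, with Bim genotype as a covariate.

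Ionising radiation breaks DNA, activates p53 and kills lymphocytes, which are among the most radiosensitive cells of the body. The mouse spleen holds B cell follicles and T cell zones in its white pulp, and macrophages that recycle red cells in its red pulp. In the mouse the red pulp is also a site of blood formation, which can expand during anaemia, inflammation and recovery from radiation. Dividing precursors there express genes of DNA replication and mitosis together with those of haemoglobin synthesis.

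The values are log2 intensities on which all arrays share a median of 6.55 and a highest value of 14.40. Markers of spleen were well above that median in each mouse: the B cell receptor component Cd79b stood between 12.30 and 12.86, and the red pulp iron exporter Slc40a1 between 11.63 and 12.49. Some mice stood apart. Xist, transcribed from the inactive X chromosome of females, was 8.97 in Tg_nD_I_1 and 7.44 in Tg_nD_I_3 and between 6.40 and 6.53 in the other mice. The Y-linked translation factor gene Eif2s3y was lowest in the same mice, at 6.49 and 6.40, against 7.93 to 8.49 elsewhere. So 2 of the 6 irradiated and 0 of the 5 SRBC mice had this pattern, and results are also given with only the other 4 irradiated mice. Among the SRBC mice, Tg_nD_A_1 had the highest erythroid and cell division levels, given below for each list. Ccnd1, which encodes cyclin D1, stood at 10.47, 9.62, 10.38, 10.58 and 10.62 with SRBC alone and between 9.62 and 10.86, with a median of 10.20, after irradiation, and the groups overlapped (difference -0.09, two-sided exact permutation p = 0.685). Bcl2l11 was between 7.69 and 8.52 with SRBC alone and between 7.62 and 8.42 after irradiation (difference -0.11, exact permutation p = 0.415). The files do not say whether these probes read the transgene or the deleted part of Bim. P-values below weigh a difference against the spread between these mice.

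The comparison asks what differs in the spleen after added irradiation when no disease has developed. Of 20462 features tested with limma, 3 passed an adjusted p of 0.05, which is 0.0147%. The only named gene among them was Anln, which encodes anillin, the scaffold that organises the contractile ring in dividing cells. With SRBC alone Anln stood at 7.68 and 7.62 in Tg_KO and at 8.07, 7.58 and 7.48 in Tg mice. After irradiation it ranged from 8.46 to 8.73 with a median of 8.55. All 6 irradiated mice lay above all 5 SRBC mice, and Tg_nD_A_1 came closest. Anln rose 1.84-fold (log2 difference 0.88 ± 0.10 SE, limma adjusted p = 0.0439). A second Anln probe past the filter lay near background, at 6.54 in irradiated mice, and differed by 0.0087. In whole spleen, more cells of a type and more RNA per cell cannot be told apart.

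The other features past the threshold were probes to which the platform annotation gives no gene. ILMN_1245207 fell from 12.79 ± 0.06 (SD, n = 5) to 12.47 ± 0.05 (SD, n = 6), a log2 difference of -0.33 ± 0.03 SE (limma adjusted p = 0.0103). ILMN_1260103 rose from 13.23 ± 0.08 to 13.63 ± 0.09, by 0.41 ± 0.04 (limma adjusted p = 0.0396). The groups did not overlap for either probe. Without adjustment, 2181 features (10.7%) had p under 0.05, 947 of them higher (4.63%) and 1234 lower (6.03%) after irradiation. Counting direction alone, 45.6% of features had a higher mean and 54.4% a lower one. All irradiated mice were above all SRBC mice for 123 features (0.601%) and below them for 139 (0.679%).

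The number of features past the threshold depended on single mice. It was 116 without Tg_nD_A_1, 26 without Tg_KO_nD_I_1, 10 without Tg_KO_nD_I_2 and 1 without Tg_KO_nD_A_2. It was 0 without Tg_KO_nD_I_3, Tg_nD_A_2 or any of the 3 Tg_nD_I mice, and 4 without Tg_KO_nD_A_1 or Tg_nD_A_3. It was also 0 with only the 4 irradiated mice whose Xist was near background. Anln passed in 7 of 24 alternatives and kept its direction in all 24, with log2 differences from 0.55 to 0.98.

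**Figure D1:**
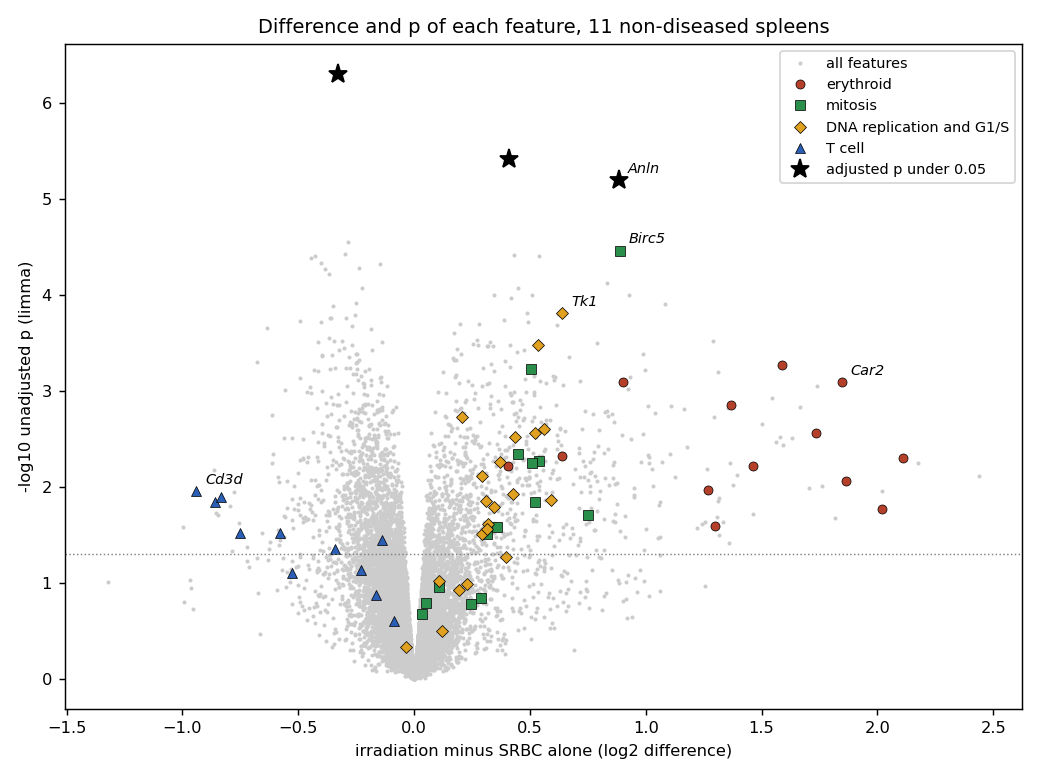
Log2 difference, irradiation minus SRBC alone (x), against -log10 of the unadjusted limma p (y) for 20462 features in 11 mice. Stars are the 3 features past the adjusted limma threshold; erythroid, mitosis and replication genes lie to the right and T cell genes to the left, and the dotted line is the unadjusted threshold of 0.05.

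Genes of mitosis had higher means after irradiation, although none passed the test. Of 21 listed, 14 were measured, 14 had a higher mean and 9 had an unadjusted p under 0.05 in that direction, against 4.63% of all features. Their median log2 difference was 0.40, against -0.005 over all features, and 0 passed the adjusted test. Birc5, which encodes survivin, a subunit of the chromosomal passenger complex, was nearest. Birc5 stood at 9.10 and 9.17 in Tg_KO and 9.61, 8.93 and 8.86 in Tg mice with SRBC alone, and between 9.86 and 10.13 with a median of 10.03 after irradiation. Every irradiated mouse was above every SRBC mouse (0.89 ± 0.12 SE, limma adjusted p = 0.0794). Its other 2 probes past the filter gave differences of means of 0.77 and 0.83. The kinase gene Aurka, needed for spindle assembly, stood at 7.71, 7.66, 8.11, 7.64 and 7.62 with SRBC alone and between 8.09 and 8.43 after irradiation. Only Tg_nD_A_1, at 8.11, reached into the irradiated range (0.51 ± 0.10, adjusted p = 0.128). Cenpa, the centromeric histone, was 0.45 ± 0.12 higher and the spindle protein gene Nusap1 0.75 ± 0.27 higher. Ccna2 and Ube2c lay at 6.46 to 6.56 in both group means, where the array barely measures them.

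Promoters of this group are shown because Anln and other genes of cell division were higher together. The windows are RefSeq sequence of build GRCm38.p6, from 250 bases before to 50 bases after a gene's start. Capitals mark TTTGAA or TTCGAA, the letters of the cell cycle homology region (CHR), and CCAAT, each searched on both strands; a TTTGAA followed by TTGG would count for both. Anln is read from chr9:22389157-22389456 (minus strand), Prc1 from chr7:80294201-80294500 (plus strand) and Aurka from chr2:172370521-172370820 (minus strand).
Anln: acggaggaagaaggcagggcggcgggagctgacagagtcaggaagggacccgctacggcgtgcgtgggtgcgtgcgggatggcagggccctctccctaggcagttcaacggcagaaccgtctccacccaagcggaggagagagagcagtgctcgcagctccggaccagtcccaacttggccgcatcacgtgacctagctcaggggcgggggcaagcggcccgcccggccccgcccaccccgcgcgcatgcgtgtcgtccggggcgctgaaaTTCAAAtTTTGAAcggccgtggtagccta
Prc1: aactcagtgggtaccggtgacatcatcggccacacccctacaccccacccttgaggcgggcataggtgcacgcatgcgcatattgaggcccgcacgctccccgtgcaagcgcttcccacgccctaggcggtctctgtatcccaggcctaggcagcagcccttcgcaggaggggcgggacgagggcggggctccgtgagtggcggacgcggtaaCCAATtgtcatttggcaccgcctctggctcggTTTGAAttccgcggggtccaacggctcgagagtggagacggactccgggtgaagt
Aurka: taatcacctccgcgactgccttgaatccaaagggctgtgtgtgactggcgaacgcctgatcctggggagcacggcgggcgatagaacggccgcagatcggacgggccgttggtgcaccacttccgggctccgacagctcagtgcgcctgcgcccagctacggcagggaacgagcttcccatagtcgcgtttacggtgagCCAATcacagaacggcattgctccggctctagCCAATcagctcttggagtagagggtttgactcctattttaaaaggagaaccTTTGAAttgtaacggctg
Of the measured mitosis genes 11 had a promoter window, and 9 of these (81.8%) held both a CHR and a CCAAT match. Both were found in 8.61% of all 27025 genes with a window and in 4 of 17 replication genes (23.5%). The Anln window held 2 CHR matches and no CCAAT, and those of Birc5, Tk1 and Cdc6 held neither. A match describes letters only, and binding was not measured.

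Genes of DNA replication and the G1/S transition also had higher means. Of 24 listed, 21 were measured and 20 had a higher mean, against 45.6% of all features. An unadjusted p under 0.05 in that direction was reached by 15, against 4.63% of all features, and 0 passed the adjusted test. Their median log2 difference was 0.32. The mean level of the list was 8.05 and 8.26 in Tg_KO and 8.40, 8.11 and 7.97 in Tg mice with SRBC alone, and between 8.40 and 8.66 with a median of 8.49 after irradiation. The groups did not overlap, though Tg_nD_A_1 nearly met the lowest irradiated mouse. Tk1, the thymidine kinase that salvages thymidine for DNA, stood at 8.21, 8.32, 8.77, 8.23 and 8.10 with SRBC alone and between 8.90 and 9.09 after irradiation. All irradiated mice were above all SRBC mice (0.64 ± 0.11 SE, adjusted p = 0.108). Its 3 other probes, at 6.53 to 7.04 in irradiated mice, gave differences of -0.03 to 0.17. Cdc6, which loads the replicative helicase onto origins, stood at 7.31, 7.18, 7.58, 7.08 and 7.02 and then between 7.65 and 7.94, again without overlap (0.53 ± 0.10, adjusted p = 0.118). Its other probes past the filter, at 6.51 and 6.60 in irradiated mice, gave differences of means of -0.003 and 0.11. Ccne1 and Ccne2, the E-type cyclins that start S phase, were also separated, by 0.44 and 0.20. Of 21 measured members 4 were separated in this way, against 0.601% of all features. Rfc3, a subunit of the clamp loader, had the only lower mean (-0.03).

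Several of the named genes outside these lists also belong to the division machinery. Prc1, which bundles microtubules of the central spindle, stood at 9.47, 9.41, 9.83, 9.13 and 9.18 with SRBC alone and between 10.01 and 10.40 after irradiation (0.83 ± 0.13 SE, limma adjusted p = 0.0964). Ncapd2, a condensin subunit, stood at 8.40, 8.32, 8.59, 8.41 and 8.21 and then between 8.69 and 9.05 (0.54 ± 0.08, adjusted p = 0.0794). Mybl2, the B-Myb transcription factor of cell cycle genes, stood at 7.16, 7.003, 7.60, 7.25 and 7.01 and then between 7.70 and 7.97 (0.62 ± 0.10, adjusted p = 0.108). None of these overlapped between the groups, and in each Tg_nD_A_1 was the highest SRBC mouse. Their other probes past the filter had lower levels and gave smaller differences of means. These were 0.0015 for Prc1, 0.21 and 0.10 for Ncapd2, and 0.08 and 0.07 for Mybl2. Fen1, the nuclease that trims Okazaki fragments, and Rad54l, a motor protein of homologous recombination, were 0.51 ± 0.08 and 0.45 ± 0.07 higher. Narf, a prelamin A binding protein gene, Epdr1, Hdgf, a growth factor gene, and Septin8, a cytoskeletal GTPase gene, were 0.34 to 0.49 higher. The other Hdgf probes past the filter gave differences of means of 0.20, -0.003 and 0.24. Fen1, Rad54l, Narf, Epdr1, Hdgf and Septin8 were each separated between the groups, with a limma adjusted p of 0.0794 to 0.108. The genes of this paragraph were picked by their small p in this same comparison, which favours separation. Of all features, 0.601% had all irradiated above all SRBC mice.

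**Figure D2:**
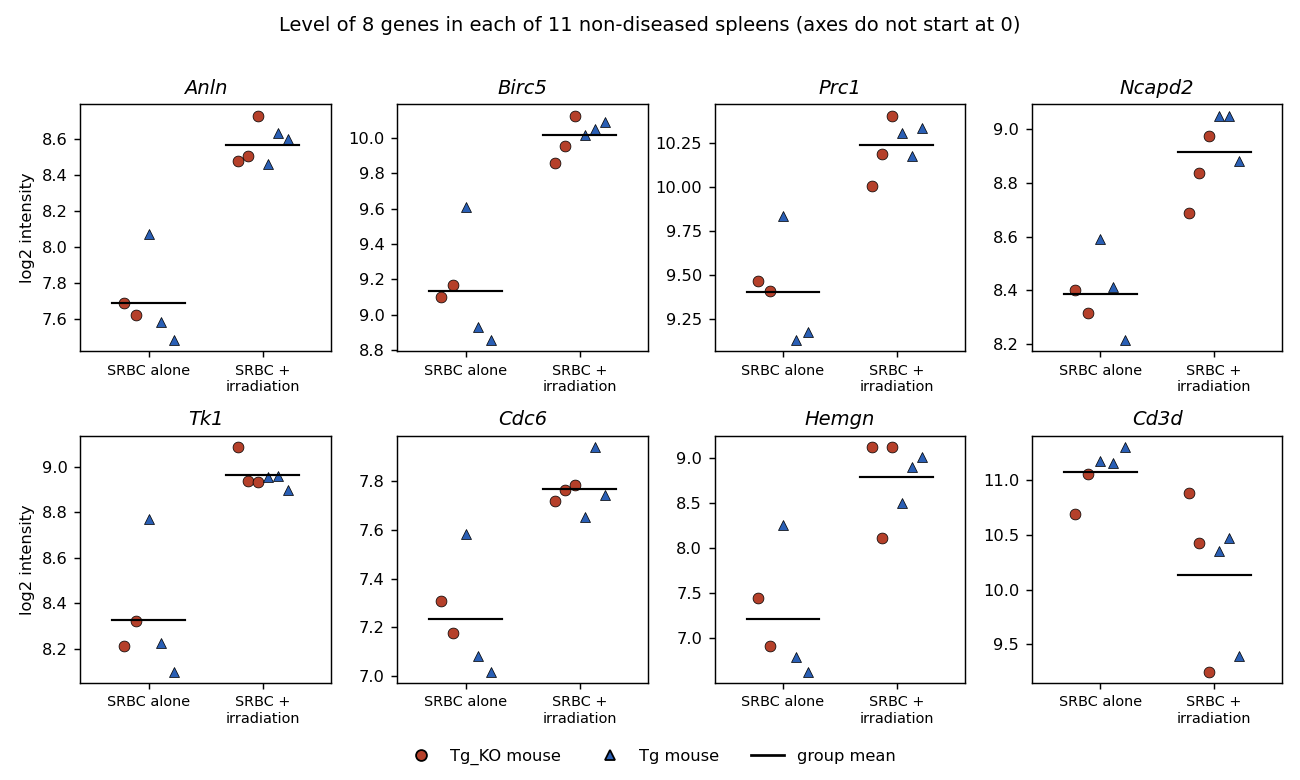
Log2 intensity (y) of 8 genes in each of the 11 mice, by stimulus (x); circles are Tg_KO mice, triangles Tg mice and lines group means. For Anln, Birc5, Prc1, Ncapd2, Tk1 and Cdc6 the irradiated mice lie above all SRBC mice, with Tg_nD_A_1 the highest SRBC triangle; Hemgn and Cd3d overlap.

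The 12 named genes with lower means and the smallest p were picked from this same comparison, and 0 of them passed. That choice favours separation of the groups: 10 had all irradiated below all SRBC mice, against 0.679% of all features. Septin9, a cytoskeletal GTPase gene, stood at 8.54, 8.54, 8.74, 8.79 and 8.66 with SRBC alone and between 8.14 and 8.46 after irradiation (-0.29 ± 0.04 SE, adjusted p = 0.0794). Dynlrb1, a dynein light chain gene, stood at 9.53, 9.69, 9.73, 9.88 and 9.61 and then between 9.17 and 9.45 (-0.39 ± 0.06, adjusted p = 0.0794). Both were separated in every mouse. Elp3, the catalytic subunit of Elongator, Rtcb, the tRNA ligase, and Tbxa2r, the thromboxane receptor, were lower by 0.25 to 0.35. Rras, a small GTPase gene, and Sprr2a1, a small proline-rich protein gene, differed by -0.19 and -0.29.

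Erythroid markers showed the largest list difference. Of 18 listed, 13 were measured and 13 had a higher mean, against 45.6% of all features. An unadjusted p under 0.05 was reached by 13, against 4.63% of all features, but 0 passed the adjusted test (smallest limma adjusted p 0.128). Their median log2 difference was 1.46. The mean level of the list with SRBC alone was 8.85 and 7.88 in Tg_KO and 9.50, 7.95 and 7.38 in Tg mice. After irradiation it ranged from 9.11 to 10.12 with a median of 9.78. The SRBC mice spread widely, and Tg_nD_A_1 lay inside the irradiated range, so 5 of 6 irradiated mice were above all SRBC mice. Hemgn, a nuclear protein of red cell precursors, stood at 7.45, 6.91, 8.25, 6.79 and 6.63 with SRBC alone. After irradiation it ranged from 8.11 to 9.12 with a median of 8.95 (1.59 ± 0.31 SE, adjusted p = 0.128), and Tg_nD_A_1 overlapped with the lowest irradiated mouse. Car2, carbonic anhydrase of red cells, stood at 7.96, 7.81, 9.17, 7.23 and 7.004 and then between 8.98 and 10.11 (1.84 ± 0.39, adjusted p = 0.133). Klf1, a master regulator of red cell genes, was 1.46 ± 0.42 higher and Slc4a1, the band 3 anion exchanger, 2.02 ± 0.70 higher. Ermap was the only erythroid member of 13 with no overlap (1.37 ± 0.31), against 0.601% of all features with all irradiated above all SRBC mice.

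The Hemgn promoter is shown because Hemgn had the smallest p of the list. It is read from chr4:46404134-46404433 (GRCm38.p6, minus strand), and capitals mark GATAA, the core letters bound by GATA factors, searched on both strands.
Hemgn: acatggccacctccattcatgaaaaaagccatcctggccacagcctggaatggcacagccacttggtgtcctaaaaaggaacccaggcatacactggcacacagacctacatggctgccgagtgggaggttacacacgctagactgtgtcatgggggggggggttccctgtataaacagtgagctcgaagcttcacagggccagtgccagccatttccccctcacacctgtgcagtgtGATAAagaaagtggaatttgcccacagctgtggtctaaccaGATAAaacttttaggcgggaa
Of the measured erythroid genes 10 had a window and 7 of these (70%) held GATAA, against 28.4% of all genes with a window and 3 of 8 T cell genes (37.5%).

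Genes of haem synthesis and globins followed the erythroid list, with which they share Alas2 and Tfrc. Of 14 listed, 11 were measured, and 11 had a higher mean with an unadjusted p under 0.05, against 4.63% of all features. Their median was 0.79 and their smallest limma adjusted p 0.133. Urod, a decarboxylase of the haem pathway, stood at 11.05, 10.61, 11.60, 10.42 and 10.35 with SRBC alone and between 11.36 and 12.14 after irradiation (1.04 ± 0.24 SE, adjusted p = 0.156). Slc25a38, the mitochondrial glycine carrier that feeds haem synthesis, was 0.72 ± 0.15 higher, and Tg_nD_A_1 lay inside the irradiated range for both genes. Hba-a1, an alpha globin gene, was at 14.34 to 14.40 after irradiation, at the ceiling of the array, so its difference of 0.17 is compressed.

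Tg_nD_A_1 had the highest erythroid and cell division levels of the SRBC mice, so leaving it out could only widen these differences, and the values without it are a description. The median then was 1.82 for erythroid, 0.94 for haem, 0.48 for mitosis and 0.38 for replication genes. In that fit of 10 mice 116 of 20462 features passed (0.567%). Birc5, Aurka, Cenpa and Nusap1 of the mitosis list passed (limma adjusted p from 0.00209 to 0.0445). So did Tk1, Cdc6 and Rrm2 of the replication list, Car2, Hemgn, Klf1 and Trim10 of the erythroid list and Urod, Slc25a38 and Cpox of the haem list. The other list members that passed were Rad54l and Gclm, which were higher, and Atm, which was lower (-0.25, limma adjusted p = 0.0234). With only the 4 irradiated mice of low Xist the medians were 1.41, 0.95, 0.46 and 0.36, and 0 members passed. After adjustment for the erythroid level of each mouse, the medians were 0.30 for mitosis and 0.21 for replication genes. Then 6 of 14 and 7 of 21 members had an unadjusted p under 0.05, against 2.38% of all features. The erythroid level comes from the same arrays and itself differed between the groups, with a mean of 9.73 after irradiation and 8.31 with SRBC alone. This fit therefore cannot separate the division signal from the erythroid difference. The part of red cell precursors in the division signal was not tested.

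**Figure D3:**
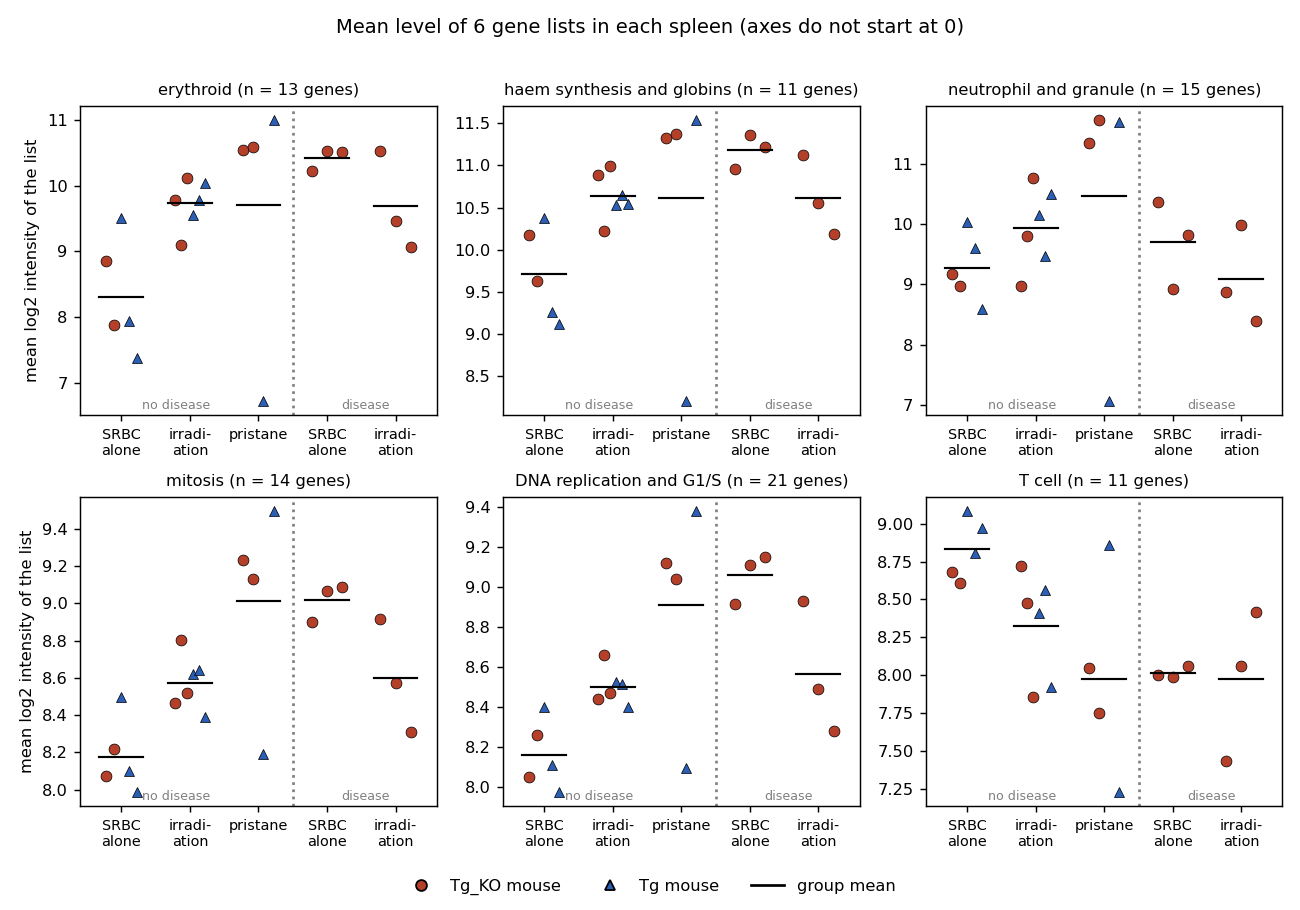
Mean log2 intensity (y) of 6 gene lists in each mouse by stimulus (x), with diseased Tg_KO mice right of the dotted line; circles are Tg_KO, triangles Tg mice and lines group means. Among non-diseased mice the replication list lies at 7.97 to 8.40 with SRBC alone and 8.40 to 8.66 after irradiation, while diseased mice with SRBC alone are at 8.91 to 9.15.

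Neutrophil and granule genes had higher means in all 15 measured of 17 listed, with a median of 0.71. Of these 4 had an unadjusted p under 0.05, against 4.63% of all features, and 0 passed. That count was 11 without Tg_KO_nD_I_1 and 3 to 6 without any other mouse, with medians from 0.53 to 0.86. The 4.63% belongs to the fit of all 11 mice. For fits with fewer mice the share of all features is not given here, so their counts have no baseline. Ngp, a granule protein gene, stood at 8.61, 9.01, 9.98, 8.99 and 8.46 with SRBC alone and between 9.05 and 10.96 after irradiation. The groups overlapped (1.06 ± 0.36 SE, limma adjusted p = 0.288). With only the 4 irradiated mice of low Xist, 0 members had an unadjusted p under 0.05 (median 0.52). With the erythroid level as a covariate the median was -0.005.

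Red pulp macrophage markers were higher in 11 of 13 measured members, with 4 at an unadjusted p under 0.05, against 4.63% of all features, and a median of 0.23. The medians of the genotypes had opposite signs: in Tg_KO 4 of 13 were higher with a median of -0.05, and in Tg 12 of 13 with a median of 0.45. An unadjusted p under 0.05 for the difference between genotypes was reached by 1 of 13 members, against 2.65% of all features. Hmox1, the haem oxygenase that breaks down haem in these cells, stood at 9.03, 8.91, 8.97, 8.62 and 8.94 with SRBC alone. After irradiation it ranged from 9.19 to 9.71 with a median of 9.39, with no overlap (0.52 ± 0.11 SE, adjusted p = 0.142). Slc40a1 was 0.42 ± 0.12 higher and overlapped. Gclm, which makes the regulatory subunit for glutathione synthesis and is a target of NRF2, was 1.11 ± 0.30 higher (adjusted p = 0.209), with Tg_nD_A_1 inside the irradiated range. The NRF2 list as a whole had a median of 0.03.

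T cell markers were lower in 11 of 11 measured members of 16 listed. Of these 7 had an unadjusted p under 0.05, against 6.03% of all features, and 0 passed. Their median was -0.53. Cd3d, a subunit of the T cell receptor complex, stood at 10.69, 11.06, 11.18, 11.16 and 11.30 with SRBC alone. After irradiation it was lowest in Tg_KO_nD_I_3 (9.25) and Tg_nD_I_3 (9.39) and between 10.35 and 10.89 in the other 4 mice. The groups overlapped (-0.94 ± 0.30 SE, limma adjusted p = 0.269). Cd8b1, of the CD8 coreceptor, was lower by 0.83, and its 2 other probes past the filter disagreed, with differences of means of -0.90 and -0.00073. With only the 4 irradiated mice of low Xist, 0 of 11 members had an unadjusted p under 0.05 and the median was -0.28. Leaving out each of the 11 mice gave medians from -0.64 to -0.37. The count of 7 members fell to 3 without Tg_KO_nD_I_3 or Tg_nD_I_3, the mice with the lowest Cd3d, and to 4 without Tg_KO_nD_A_1, Tg_nD_A_1, Tg_nD_A_3 or Tg_nD_I_1. The 6.03% belongs to the fit of all 11 mice. For fits with fewer mice the share of all features is not given here, so a fall in the count has no baseline.

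For pan-B cell markers the median was -0.05, with 0 of 13 at an unadjusted p under 0.05. For plasma cell markers it was 0.001, with 1 of 13 at that level, against 10.7% of all features. NK and cytotoxic markers had a median of -0.07, with Tbx21, their T-box transcription factor, 0.25 lower. Markers of stroma had a median near 0, and Dcn, the matrix proteoglycan decorin, was 0.78 ± 0.25 lower (limma adjusted p = 0.271). Fat markers were lower in 5 of 5 measured members (median -0.29), with 0 at an unadjusted p under 0.05. Adipoq, the adipocyte hormone adiponectin, was 8.24 in Tg_KO_nD_A_1 and between 6.50 and 7.23 in the other mice. Acinar markers of the pancreas other than Cela1 were near background in most mice. Cela1 stood at 7.59 to 8.63 and was 0.57 higher after irradiation. It was the only 1 of 7 measured members at an unadjusted p under 0.05, against 4.63% of all features in that direction. The mean level of the list was 7.09 in Tg_nD_I_1 and 6.71 to 6.84 in the other mice. The part of these cell types in the results above was not tested.

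Genes of the p53 response, which radiation activates within hours in many tissues, were little different. Of 30 listed, 24 were measured, 9 were higher and 15 lower, and the median was -0.02. An unadjusted p under 0.05 was reached by 1 in the higher and 3 in the lower direction, against 4.63% and 6.03% of all features, and 0 passed. Cdkn1a, the p21 inhibitor of cyclin-dependent kinases, differed by 0.06 ± 0.11 SE, and Mdm2, the ligase that degrades p53, by -0.05 ± 0.08. Gtse1, a microtubule protein gene of G2 and S phase cells, was the highest at 0.50 ± 0.15. Ccng1, cyclin G1, stood at 9.55, 9.97, 9.65, 9.81 and 9.89 with SRBC alone and between 9.42 and 9.70 after irradiation (-0.23 ± 0.08, adjusted p = 0.329), with overlap. Its other probes past the filter gave differences of means of -0.03 and -0.04. Of 17 measured DNA repair genes 9 were higher. Rad54l was the only separated one of the 17, against 0.601% of all features with all irradiated above all SRBC mice. Atm, the kinase that signals DNA breaks, was lower by 0.20 (limma adjusted p = 0.202 with all 11 mice).

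In the BCL2 family, Bcl2l1, which encodes the survival protein BCL-XL, was 0.71 ± 0.19 SE higher (limma adjusted p = 0.209) with overlap. Its other probes past the filter, at 6.79 and 6.78 in irradiated mice, gave differences of means of 0.20 and 0.13. Bcl2a1d, a pro-survival A1 gene with near-identical copies that a probe may not tell apart, stood at 10.54, 10.41, 10.59, 10.33 and 10.33 with SRBC alone. After irradiation it was between 9.72 and 10.21, all below the SRBC mice (-0.40 ± 0.09, adjusted p = 0.142). Interferon response genes had a median of 0.02 over 20 measured, and Rsad2, the antiviral viperin, was 1.46 ± 0.52 higher with wide overlap, and -0.50 with the erythroid level as a covariate. Clock genes were lower in 12 of 14, with a median of -0.06, and Dbp, an output regulator of the clock, by 0.48 (adjusted p = 0.339). The sampling time of day is not given in the sources used here. In the MYC-driven list 11 of 13 were lower, and Npm1, the nucleolar protein nucleophosmin, was separated by 0.18. MHC class II, NF-kB, immunoproteasome, dendritic and haematopoietic progenitor lists had medians from -0.14 to 0.01, with 0 members past the test. Follicular, marginal zone and B-1a B cell, regulatory T cell, marginal zone macrophage, megakaryocyte, eosinophil and mast cell, and immediate early lists had medians from -0.16 to 0.06, also with 0 past the test.

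Within each genotype limma passed 0 features: in Tg_KO (3 against 2 mice) 1190 of 20462 had an unadjusted p under 0.05 (5.82%), and in Tg (3 against 3) 1583 (7.74%). The differences pointed the same way for the leading genes. These genes were picked for their difference over the same mice, which favours a shared sign in both genotypes. Anln was 0.92 ± 0.16 SE higher in Tg_KO and 0.85 ± 0.14 in Tg, and Birc5 0.85 and 0.92. The erythroid median was 1.38 and 1.53, and the mitosis median 0.41 and 0.36. The T cell median was -0.21 in Tg_KO and -0.78 in Tg, and 0 of 11 members had an unadjusted p under 0.05 for the difference between genotypes. Germinal centre markers had a median of 0.23 in Tg_KO and -0.22 in Tg, with 1 of 8 members at that level. Tests of the difference between genotypes passed 0 features, with 543 at an unadjusted p under 0.05 (2.65%). The smallest p belonged to Wipf3, an actin regulator gene, which stood at 7.26 and 7.45 in Tg_KO mice with SRBC alone and between 6.59 and 6.91 in the other 9 mice. With 2 or 3 mice a group, a difference that misses the threshold does not show that the genotypes respond alike. Both irradiated mice with high Xist and low Eif2s3y, Tg_nD_I_1 and Tg_nD_I_3, are Tg mice. Differences between genotypes, also those of red pulp macrophage markers above, therefore cannot be fully told apart from that pattern. Without Tg_KO_nD_A_1 the counts were 20 within Tg_KO and 3 for the difference, and without Tg_nD_A_1 the count within Tg was 4. Without Tg_KO_nD_A_1 its group is 1 mouse, which is assumed to vary like the other groups.

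**Figure D4:**
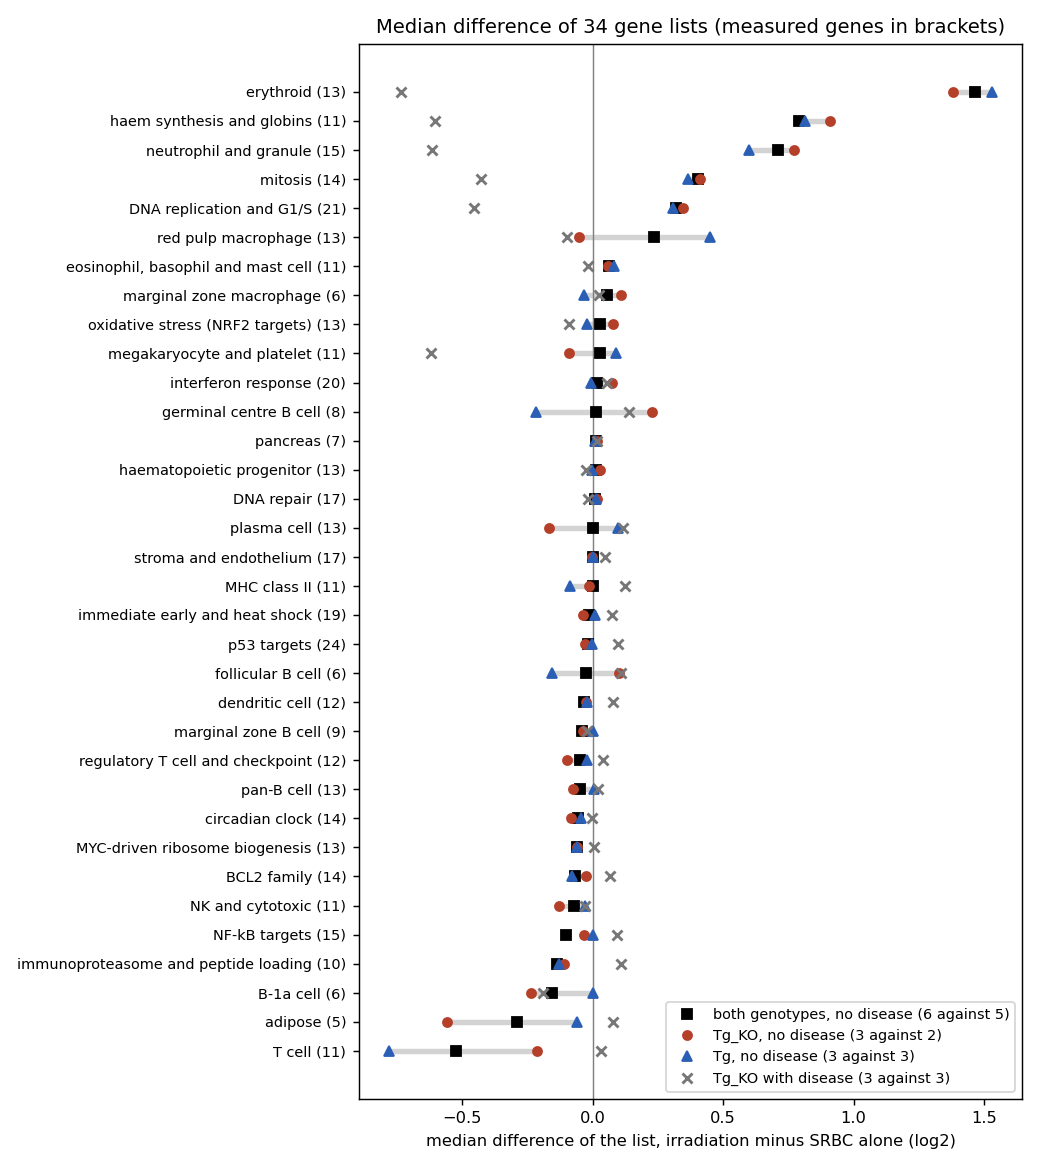
Median log2 difference, irradiation minus SRBC alone (x), of 34 gene lists (y): squares for both genotypes, circles for Tg_KO and triangles for Tg without disease, crosses for diseased Tg_KO mice. Erythroid, haem, neutrophil, mitosis and replication lists are above 0 in both genotypes without disease and below 0 with disease.

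The irradiation difference of Tg_KO mice was set against that of diseased Tg_KO mice (3 irradiated and 3 with SRBC alone, labelled as having developed MCL). The 5 non-diseased Tg_KO mice also enter the comparison above, so these values are not independent of it. The test of the difference passed 0 of 20462 features in limma, with 1631 at an unadjusted p under 0.05 (7.97%), 961 more positive without disease (4.70%) and 670 more negative (3.27%). In diseased mice the erythroid median was -0.74, with 13 of 13 members lower, the mitosis median -0.43 with 14 of 14 lower and the replication median -0.46 with 20 of 21 lower. An unadjusted p under 0.05 for the difference was reached by 9 of 13, 10 of 14 and 17 of 21 members of these lists, all more positive without disease. Anln differed by 0.92 without and -0.73 with disease (difference 1.65 ± 0.29 SE, adjusted p = 0.250). Diseased mice had high levels of Anln under SRBC alone, at 8.99 to 9.37, and stood at 8.18 to 8.96 after irradiation. Tk1 differed by 0.72 and -0.84 (1.56, adjusted p = 0.221). Atxn1, which encodes the nuclear protein ataxin 1, had the smallest p, with -0.29 without and 0.39 with disease (adjusted p = 0.132). The count depended on single mice: 66 without diseased Tg_KO_D_I_1, 5 without Tg_KO_nD_A_1 and 1 without Tg_KO_D_A_3, Tg_KO_D_I_3 or Tg_KO_nD_I_2. The count of 5 again rests on a group of 1 mouse whose spread is taken from the other groups. For T cell markers 0 of 11 members had an unadjusted p under 0.05 for this difference. Of the 4 non-diseased pristane mice, Tg_nD_P_1 had an erythroid list level of 6.73, below all 11 mice. The level was 10.54 in Tg_KO_nD_P_1, 10.58 in Tg_KO_nD_P_2 and higher still in Tg_nD_P_2, all above the 11 mice. These 3 were also above all 11 for mitosis (9.13 to 9.49, against at most 8.80) and replication (9.04 to 9.38, against at most 8.66). For these lists Tg_nD_P_1 stood at 8.19 and 8.09, within the range of SRBC alone. The difference between pristane and SRBC alone was not tested.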

How the data were processed

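Total RNA of whole frozen spleens was labelled with biotin and hybridised to 1-colour Illumina bead arrays, per the labels' protocols. The authors deposited log2 intensity values for 22 arrays; all arrays share 1 distribution, as quantile normalization gives, while the background correction and software are not stated in the labels or headers. The log2 base was read from the values. A second table, of raw intensities, was left out: none of its 44 sample columns has a name that fits a mouse. The number of arrays limits the precision.

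Of 45281 probes, 30013 exceeded an array's 40th percentile in at least 7 of 22 arrays. A gene was represented by its probe with the highest mean, and probes with no gene (10378) or several (18) stood alone, giving 20462 features, 14499 of them named through the platform annotation and GRCm38.p6. Differences came from limma 3.58.1 (R 4.3.3; lmFit, eBayes without trend) with genotype and stimulus as terms, and from group means for the within-genotype, genotype-difference and disease-difference tests (17 mice for the last). P-values are two-sided and adjusted by Benjamini-Hochberg over all features at 0.05. The exact permutation test used all 200 reassignments of stimulus within genotype. The fit was tested on simulated data.

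Mice and lists were chosen with earlier results of these data known, and 35 lists are described by counts and medians. Named genes are the 12 highest and 12 lowest by p or change, up to 3 members per list with the smallest p, 3 genes per difference test, and Ccnd1, Bcl2l11, Xist and Eif2s3y; Klf1, Slc4a1, Ermap, Trim10, Cpox, Nusap1, Rrm2, Ccne1, Hba-a1, Ccna2, Ube2c, Rfc3, Alas2, Tfrc, Cdkn1a and Mdm2 were named after their values were seen. Alternatives covered filters, probes, eBayes settings, array weights, samples fitted, covariates, a block for the title number, and the omission of each mouse. The group-mean average and the fit with 4 irradiated mice of low Xist were added after seeing the data.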

Additional observations from a re-analysis of the deposited data

Results flagged for a closer look

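A mouse was singled out where its distance to the nearest mouse of its group was large against the range of the group. Chance alone does this in about 1 in 20 groups, and it occurred in 11 of 178 groups examined. Among mice with SRBC alone, Tg_nD_A_1 was high for the mitotic kinase gene Aurka (8.107, others 7.62 to 7.71) and for Tbx21 (7.522, others 7.43 to 7.45). Tg_KO_nD_A_2 was low for Ccnd1 (9.622, others 10.37 to 10.62) and high for Npm1 (12.574, others 12.29 to 12.33) and for probe ILMN_1245207 (12.895, others 12.74 to 12.78). Tg_nD_A_2 was low for Hmox1 (8.623, others 8.91 to 9.03). Among irradiated mice, Tg_KO_nD_I_1 was high for Tk1 (9.086, others 8.90 to 8.96) and for the mean level of the NRF2 list (9.089, others 8.95 to 8.99). Tg_nD_I_3 was low for Bcl2a1d (9.716, others 10.04 to 10.21). Tg_nD_I_1 was high for Adipoq (7.183, others 6.50 to 6.71) and for the mean level of the pancreas list (7.089, others 6.80 to 6.84). Tg_nD_I_1 also had the highest Xist level.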

How the results depend on the processing

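The main count of 3 features became 1 with every probe as a feature and 1 with group means averaged over genotypes. It became 0 with all 22 mice, with the 17 mice without pristane, with the Xist or the erythroid level as a covariate, and with the 4 irradiated mice of low Xist. It stayed at 2 or 3 with no filter, a 60th percentile filter, trended and robust eBayes, weighted arrays or no genotype covariate, and leaving out each mouse gave 0 to 116. Within Tg_KO the count of 0 became 1 with every probe and 1 with trend and robust settings, and leaving out a mouse gave 0 to 20. Leaving out a mouse gave 0 to 4 within Tg, 0 to 3 for the genotype difference and 0 to 66 for the disease difference, and the other alternatives of these gave 0. The cause was not tested. Birc5 passed in 2 of 24 alternatives. With the erythroid level as a covariate the sign turned for Rsad2 (-0.50 ± 0.18 SE), Ccng1 (0.03), Ccnd1 (0.05) and Bcl2l11 (0.03), and for Ccnd1 also with the Xist level (0.006), with the 4 mice of low Xist (0.04) and without Tg_KO_nD_I_1 (0.01). These 4 genes missed the threshold with either sign. The other genes named in the sections above that were recomputed kept their direction. Several list members picked by p but not named above changed sign in at least 1 alternative. Lmo2 ranged from -0.11 to 0.51 and Fas from -0.51 to 0.007, and Cd209d changed sign in 4 of 24 alternatives.

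With the title number as a replicate block the main count was 0, and the other counts were 0 with it as without it. Deviations of same-numbered mice from their group means had correlations of 0.004 and 0.25 in Tg_KO and -0.16, -0.17 and -0.12 in Tg. Because the groups hold 2 or 3 mice, these values cannot settle whether the numbers pair mice.

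Leaving out each mouse kept the erythroid median between 1.22 and 1.82, the mitosis median between 0.33 and 0.48 and the replication median between 0.27 and 0.39. Values near 6.5 are close to background and their differences are compressed.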
